A study of Mus musculus with 9 samples.

Results

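The ADAMTS genes encode secreted zinc proteases of the extracellular matrix, and 6 of them (Adamts1, Adamts2, Adamts4, Adamts5, Adamts9 and Adamts12) were followed in MC3T3-E1 cells during osteoblast differentiation with and without depletion of Runx2. They were listed by gene symbol. Of the 6, 5 were carried by a probe set with a single symbol and were measured among 19937 genes, and Adamts2 is not analysed here. MC3T3-E1 is a mouse preosteoblast line from calvaria, and subclone 4 was used. All cells carried lentivirus that expresses green fluorescent protein, by which they were sorted, together with a scrambled short hairpin RNA (Scr) or a hairpin against the transcription factor Runx2 (shRunx2). Affymetrix Mouse Gene 1.0 ST arrays were run on RNA from Scr cells in proliferation (day 0), Scr cells after 9 days in osteogenic medium with ascorbic acid and beta-glycerophosphate (day 9), and shRunx2 cells at day 9. Each group had 3 arrays, which the labels call biological replicates, and shRunx2 cells were not profiled at day 0. The level of Runx2 is not analysed here.

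ADAMTS proteases share a metalloprotease domain that holds zinc, and thrombospondin type 1 repeats and other ancillary domains that bind matrix and substrate. They are made as inactive precursors, and proprotein convertases such as furin remove the propeptide. One branch of the family, to which Adamts1, Adamts4, Adamts5 and Adamts9 belong, cuts the large aggregating proteoglycans aggrecan and versican, and is best known from cartilage turnover and arthritis. Another branch, with Adamts2, trims the amino propeptide from fibrillar procollagens, and Adamts12 with its close relative Adamts7 degrades cartilage oligomeric matrix protein. Timp3 is the main tissue inhibitor of the aggrecan-cutting members.

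Values are RMA log2 expression, in which a difference of 1 is a doubling, and levels of different probe sets are not compared with each other. Array medians lay between 8.42 and 8.51, the lowest correlation within a group across genes was 0.9981, and the highest between groups was 0.9969. Of 8 osteoblast markers 6 were measured, among them Alpl, Ibsp and Phex. From Scr day 0 to Scr day 9, 5 of these 6 rose, beside 14.5% of all genes tested. Acan, which encodes aggrecan and marks chondrocytes, had group means between 7.92 and 7.95 and did not pass in any comparison. Array number limits the precision. Rise and fall are used here for changes with an adjusted p below 0.05 (limma, Benjamini-Hochberg over all 19937 genes). Intervals are 95% intervals for 1 gene, without adjustment.

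The 5 genes followed different courses. Adamts4 rose during differentiation and was lower in shRunx2 than in Scr cells at day 9. Adamts12 fell during differentiation and was lower still in shRunx2 cells. Adamts5 fell and Adamts1 rose during differentiation, and neither passed between shRunx2 and Scr cells at day 9. Adamts9 passed in none of the 3 comparisons. The arrays came from bulk RNA, in which fewer cells that express a gene and less RNA of it per cell cannot be told apart.

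**Figure D1:**
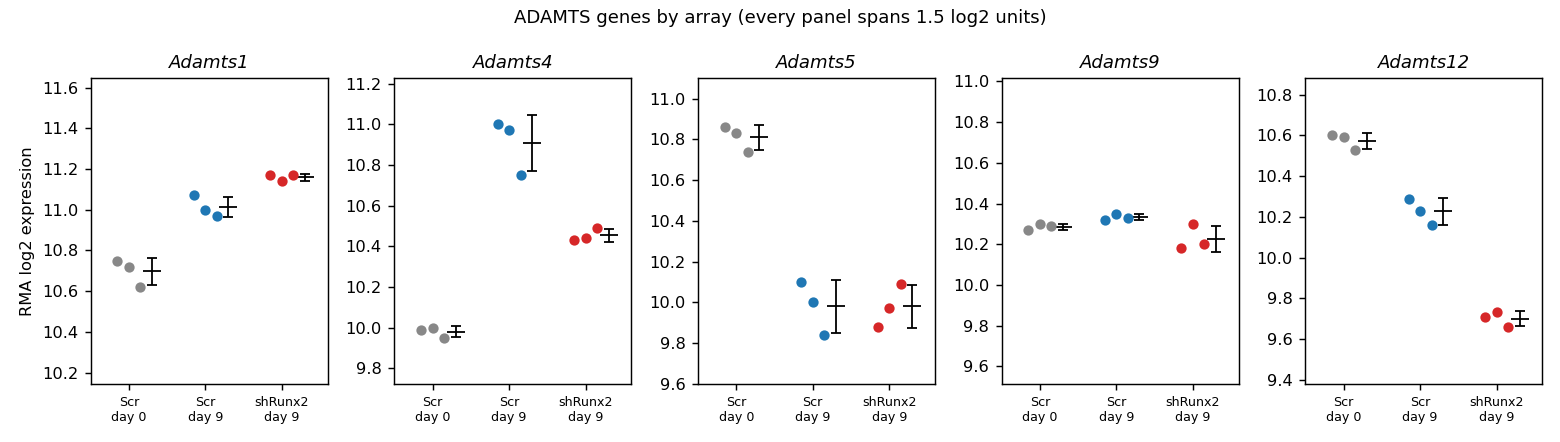
Each panel gives 1 of 5 ADAMTS genes, with the group (Scr day 0, Scr day 9, shRunx2 day 9) on the horizontal axis and RMA log2 expression on the vertical axis. Points are single arrays, and black marks give the mean and SD of the 3 arrays in a group. Adamts4 steps from a mean of 9.98 up to 10.91 and back to 10.45, whereas Adamts12 steps down from 10.57 through 10.23 to 9.70.

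To determine which ADAMTS genes differ with the Runx2 hairpin, expression was compared between shRunx2 and Scr cells at day 9. A single hairpin was compared with a single control, so loss of Runx2 and other effects of the hairpin cannot be told apart. Adamts12 and Adamts4 fell, none rose and 3 did not pass. Over all genes tested, 4.66% fell and 2.73% rose in this comparison. The median log2 change of the 5 genes was -0.11 (range -0.52 to 0.15), beside -0.0041 over all genes. The study followed Adamts4 up for its response on these same samples and for Runx2 binding mainly outside promoters. Its direction here is therefore not independent evidence. The follow-up also reported lower Adamts4 expression after knockdown, and reporter assays of bound regions.

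Adamts12, a protease of cartilage oligomeric matrix protein, had log2 expression of 10.29, 10.23 and 10.16 on the Scr day 9 arrays and 9.71, 9.73 and 9.66 on the shRunx2 arrays. All 3 shRunx2 arrays lay below all 3 Scr arrays. The means were 10.23 ± 0.067 and 9.70 ± 0.035 (SD, n = 3), a 1.44-fold lower level in shRunx2 cells. The log2 change was -0.52 ± 0.043 (SE), with an interval of -0.62 to -0.43 (limma, adjusted p = 2.17e-05). In all 18 alternative settings the gene passed in the same direction.

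Adamts4, also called aggrecanase 1, had values of 11.00, 10.97 and 10.75 in Scr cells at day 9 and of 10.43, 10.44 and 10.49 in shRunx2 cells. The groups did not overlap, although Scr day 9 replicate 3 lay closer to the shRunx2 arrays than the other two. The means were 10.91 ± 0.14 and 10.45 ± 0.031 (SD, n = 3), a 1.37-fold lower level. The log2 change was -0.45 ± 0.059 (SE), with an interval of -0.58 to -0.33 (limma, adjusted p = 0.000621), and it ranged from -0.53 to -0.41 over 18 alternative settings. The intervals of Adamts12 and Adamts4 overlap, and the difference between these changes was not tested.

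Adamts1, which cuts aggrecan and versican, read 11.07, 11.00 and 10.97 in Scr and 11.17, 11.14 and 11.17 in shRunx2 cells at day 9. The 3 shRunx2 arrays lay above the 3 Scr arrays, but the step of 0.15 ± 0.043 (SE; interval 0.053 to 0.24) did not pass (limma, adjusted p = 0.0689). This gene lay near the threshold. It passed in 5 of 18 alternative settings, with adjusted p between 0.00799 and 0.206, and its change was above 0 in all 18.

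Adamts5, also called aggrecanase 2 and the main aggrecan-degrading protease of mouse cartilage, had overlapping groups. Its values were 10.10, 10.00 and 9.84 in Scr and 9.88, 9.97 and 10.09 in shRunx2 cells. The log2 change was 0.0022 ± 0.069 (SE), and the interval of -0.15 to 0.15 allows a difference of that size in either direction (limma, adjusted p = 0.992). The sign of this change turned when Scr day 9 replicate 3 (-0.066) or shRunx2 replicate 3 (-0.052) was left out.

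Adamts9, a protease of versican and the member closest to the C. elegans protease GON-1, read 10.32, 10.35 and 10.33 in Scr and 10.18, 10.30 and 10.20 in shRunx2 cells. The shRunx2 arrays lay below the Scr arrays, with replicate 2 close to them. The log2 change was -0.11 ± 0.039 (SE; interval -0.20 to -0.021) and did not pass (limma, adjusted p = 0.147). It passed in 2 of 18 alternative settings, with array weights (adjusted p = 0.0372) and with the dimmest of its probe sets (0.0388).

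**Figure D2:**
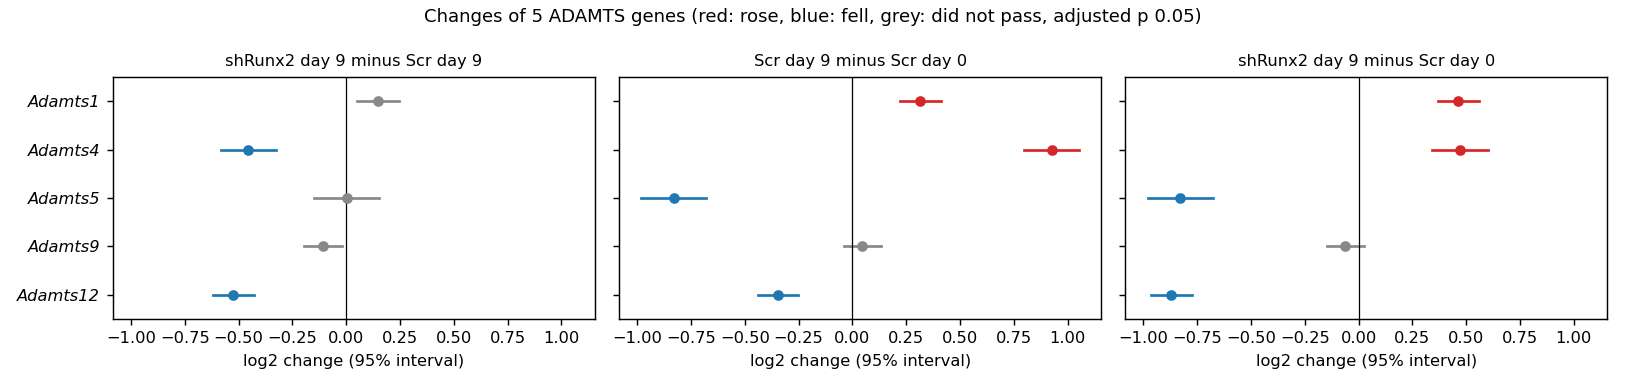
Log2 change (horizontal axis, points, with bars for the 95% interval) of 5 ADAMTS genes (vertical axis) in 3 comparisons of group means of 3 arrays. Red points rose, blue points fell and grey points did not pass. Adamts12 lies left of 0 in every panel, at -0.52, -0.35 and -0.87, and Adamts4 lies at -0.45, 0.93 and 0.47.

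The symbol Adamts9 alone is carried by 6 probe sets, of which the one with the highest mean was used above. On all 6 the shRunx2 mean lay below the Scr mean at day 9, with log2 changes from -0.21 to -0.037. None of the 6 passed when all 34760 probe sets were tested (limma, adjusted p from 0.113 to 0.780). On probe sets 10546432 and 10546454, which had the lowest means, Scr day 9 replicate 1 was the highest of the 9 arrays, at 9.54 and 9.86. The probe sets belong to 1 gene and are not replicates. Each of the other 4 genes had a single probe set.

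**Figure D3:**
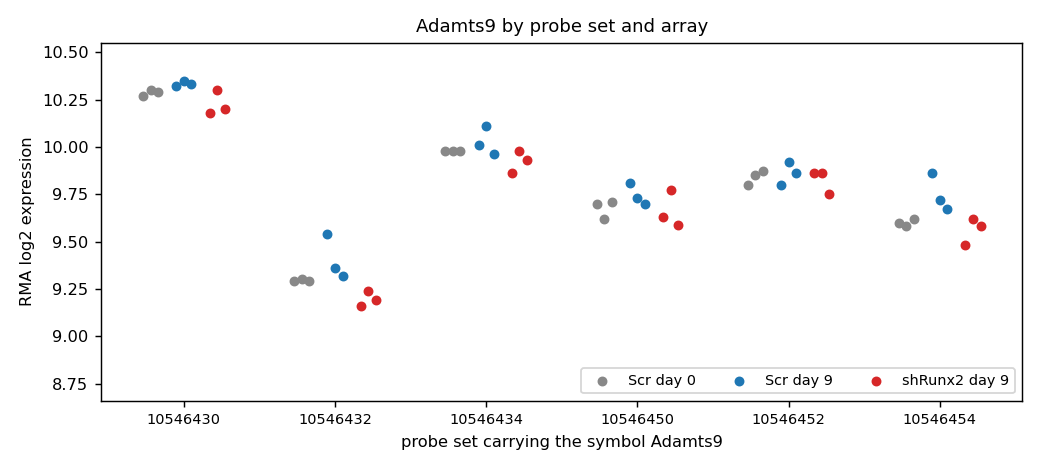
RMA log2 expression (vertical axis) of the 6 probe sets that carry the symbol Adamts9 alone (horizontal axis, by probe set number), with 1 point per array, grey for Scr day 0, blue for Scr day 9 and red for shRunx2 day 9. The probe set used in the comparisons is 10546430, and on each probe set the mean of the red points lies below that of the blue points.

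Scr cells at day 9 were compared with Scr cells at day 0 to follow the same genes through differentiation. Adamts4 and Adamts1 rose, Adamts5 and Adamts12 fell, and Adamts9 did not pass. Over all genes tested, 14.5% rose and 17.1% fell in this comparison. This comparison shares the Scr day 9 arrays with the one above, so the values of the 2 comparisons are not independent of each other.

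Adamts4 read 9.99, 10.00 and 9.95 at day 0, all below its lowest value of 10.75 in Scr cells at day 9. It was 1.90-fold higher at day 9 (log2 change 0.93 ± 0.059, SE; limma, adjusted p = 2.68e-07). Adamts1 read 10.75, 10.72 and 10.62 at day 0, and all 3 values lay below those of day 9. It was 1.24-fold higher (0.32 ± 0.043; limma, adjusted p = 0.000148), with an interval of 0.22 to 0.41. The interval of Adamts4, 0.80 to 1.06, lay above it.

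Adamts5 moved the other way. It read 10.86, 10.83 and 10.74 at day 0, and no day 9 array reached above 10.10. It was 1.78-fold lower in Scr cells at day 9 (log2 change -0.83 ± 0.069, SE; limma, adjusted p = 2.52e-06). The aggrecanase genes Adamts4 and Adamts5 thus changed in opposite directions from day 0 to day 9. So did Adamts1 and Adamts5, which neighbor each other on mouse chromosome 16 with no protein-coding gene between them in the RefSeq gene table of assembly GRCm38.p6.

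Adamts12 read 10.60, 10.59 and 10.53 at day 0, above all 3 Scr arrays of day 9. It was 1.27-fold lower at day 9 (log2 change -0.35 ± 0.043, SE; limma, adjusted p = 6.16e-05). Adamts9 read 10.27, 10.30 and 10.29 at day 0, just below its day 9 values, with a log2 change of 0.047 ± 0.039 and an interval of -0.040 to 0.13 (limma, adjusted p = 0.444).

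shRunx2 cells at day 9 were also compared with Scr cells at day 0, which differ from them in both hairpin and day. Adamts4 and Adamts1 rose, Adamts5 and Adamts12 fell, and Adamts9 did not pass, where 13.8% of all genes rose and 20.4% fell. Adamts4 was 1.39-fold higher than at day 0 (log2 change 0.47 ± 0.059, SE; limma, adjusted p = 5.99e-05), and Adamts12 was 1.83-fold lower (-0.87 ± 0.043; adjusted p = 2.70e-08). The log2 change of Adamts1 was 0.46 ± 0.043, that of Adamts5 was -0.83 ± 0.069, and that of Adamts9 was -0.061 ± 0.039 with an adjusted p of 0.290. These values share their arrays with both comparisons above.

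The order of the 3 groups thus differed by gene. For Adamts4 it ran from Scr day 0 through shRunx2 day 9 up to Scr day 9, and each neighboring pair differed. For Adamts12 it ran from shRunx2 day 9 through Scr day 9 up to Scr day 0, and each neighboring pair again differed. For Adamts1 the lowest group was Scr day 0, and the day 9 groups above it did not pass against each other. For Adamts5 the day 9 groups were lowest and could not be separated, and Scr day 0 was highest. For Adamts9 no pair passed.

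Other genes were ranked by the root mean square difference between log2 profiles over the 9 arrays, each profile centered on its own mean, and the 3 nearest genes were taken for each ADAMTS gene. This is a description over arrays that fall into 3 groups. Nearest to Adamts4 were Itgb8 (0.0473), an integrin subunit, Tlcd1 (0.0538) and Mitf (0.0640), a transcription factor of melanocytes and osteoclasts. Itgb8 had means of 8.16 in Scr day 0, 9.03 in Scr day 9 and 8.60 in shRunx2 cells. Nearest to Adamts12 were Uggt1 (0.0509), which senses misfolded glycoproteins, Glce (0.0510), an epimerase of heparan sulfate synthesis, and Spcs3 (0.0543), a subunit of the signal peptidase complex. Uggt1 stepped down from 11.79 through 11.41 to 10.97.

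Nearest to Adamts5 were Erlin2 (0.0588), Peg10 (0.0607), an imprinted gene, and Nanos1 (0.0626), all lower in both day 9 groups than at day 0. Nearest to Adamts1 were Mab21l1 (0.0272), Fam102b (0.0323) and Srr (0.0335), which encodes serine racemase. For Adamts9, whose profile was nearly flat, the nearest genes were Usp20 (0.0204), Fam243 (0.0206) and Fau (0.0211).

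The promoters of Adamts12, the measured member with the largest change in shRunx2 cells, and of Adamts1, which did not pass, are shown here because they are the nearest sequence to ask whether the Runx core element TGTGGT lies at the start of these genes. Each is the RefSeq sequence of assembly GRCm38.p6 from 250 bases before to 50 bases after the gene's start, 5′ to 3′ on the gene's strand. Capitals would mark the element on either strand (TGTGGT or ACCACA), and neither sequence holds one. The Adamts12 sequence lies at chr15:11064523-11064822 on the plus strand and the Adamts1 sequence at chr16:85803064-85803363 on the minus strand.
Adamts12: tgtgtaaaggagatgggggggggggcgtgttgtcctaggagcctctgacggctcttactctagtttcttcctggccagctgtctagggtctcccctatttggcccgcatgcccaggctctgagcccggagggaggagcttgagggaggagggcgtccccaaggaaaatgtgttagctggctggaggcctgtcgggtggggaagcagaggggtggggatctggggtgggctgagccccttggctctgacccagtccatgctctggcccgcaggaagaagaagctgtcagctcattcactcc
Adamts1: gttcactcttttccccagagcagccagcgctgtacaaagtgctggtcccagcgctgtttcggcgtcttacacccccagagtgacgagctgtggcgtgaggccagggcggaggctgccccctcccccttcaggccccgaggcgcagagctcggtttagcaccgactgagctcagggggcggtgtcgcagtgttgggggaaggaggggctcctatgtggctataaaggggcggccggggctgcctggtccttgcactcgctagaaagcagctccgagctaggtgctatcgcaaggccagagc

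The element was also absent from the promoters of Adamts2 and Adamts9 from the same source. Thus 0 of 4 promoters found for the 6 listed genes held it. No promoter sequence was at hand for Adamts4 or Adamts5, so these genes were not searched. The element was held by 0 of 6 promoters of other ADAMTS genes and 0 of 7 promoters of the ADAMTS-like genes described below. Among the ADAMTS-like genes, Thsd4 was searched at more than a single start. For Adamtsl1 no promoter sequence was at hand, so this gene was not searched. Of all 32851 promoters of this length, 16.8% held it. The searched promoters of these genes had between 54.7% and 78.7% G and C bases, and the 16.8% was not matched for base composition. A difference from that share was not tested. The window covers only the bases next to the start, and these letters say nothing about binding elsewhere in a gene.

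None of 13 other ADAMTS genes in the family passed between shRunx2 and Scr cells at day 9, where 2.73% of all genes tested rose and 4.66% fell. Their log2 changes ran from -0.13 (Adamts10) to 0.20 (Adamts6), with a median of -0.0027. At an unadjusted p under 0.05 in limma, 1 of the 13 passed, Adamts6. Its values were 9.91, 9.85 and 9.61 in Scr and 9.92, 10.01 and 10.04 in shRunx2 cells, and its adjusted p was 0.196. In 1 of 18 alternative settings, quantile normalization repeated over all 19937 genes, 1 of the 13 passed.

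In differentiation 2 of the 13 rose and 1 fell, where 14.5% of all genes tested rose and 17.1% fell. Adamts14, a procollagen amino-propeptidase like Adamts2, rose 1.30-fold (log2 change 0.38 ± 0.037, SE; limma, adjusted p = 1.07e-05), with 9.19, 9.11 and 9.18 at day 0 and 9.58, 9.53 and 9.51 at day 9. Adamts10, which binds the microfibril protein fibrillin, rose 1.17-fold (adjusted p = 0.0108). Adamts6 fell 1.31-fold, from a mean of 10.17 ± 0.13 to 9.79 ± 0.16 (SD, n = 3; adjusted p = 0.00289). Adamts7, the close relative of Adamts12, had log2 changes of -0.061 in differentiation and -0.049 in shRunx2 cells, and neither passed.

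The ADAMTS-like genes encode proteins with the ancillary domains but no protease domain, and several of them bind fibrillin. In shRunx2 cells 3 of 7 rose, none fell and 4 did not pass, where 2.73% of all genes tested rose and 4.66% fell. The median log2 change of the 7 was 0.064, and the number of them called was 3 in all 18 alternative settings. Adamtsl1 read 9.13, 8.95 and 9.02 in Scr and 9.60, 9.53 and 9.67 in shRunx2 cells at day 9. It was 1.48-fold higher, with no overlap of the groups (log2 change 0.56 ± 0.052, SE; limma, adjusted p = 5.28e-05).

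Thsd4, also called Adamtsl6, promotes the assembly of fibrillin microfibrils. It read 9.05, 8.92 and 8.96 in Scr and 9.26, 9.22 and 9.26 in shRunx2 cells, a 1.21-fold higher level (adjusted p = 0.00227). In the same way Adamtsl4 stood higher by 0.22 ± 0.037 on the log2 scale (adjusted p = 0.0034). From day 0 to day 9 in Scr cells, Thsd4 fell 1.61-fold (log2 change -0.69 ± 0.042; limma, adjusted p = 1.76e-07) and Adamtsl3 fell 1.27-fold (-0.34 ± 0.044). The other 5 did not pass in differentiation, where 14.5% of all genes tested rose and 17.1% fell. Of these 5, Adamtsl5 had the lowest adjusted p (limma, 0.226, log2 change -0.071).

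**Figure D4:**
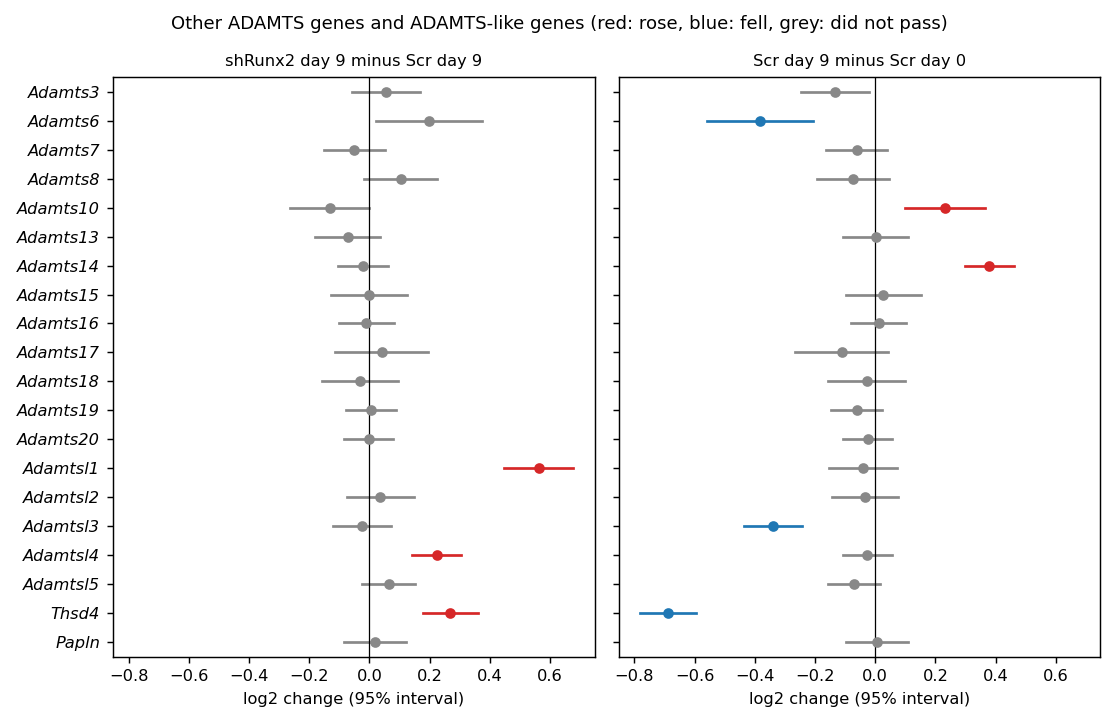
Log2 change (horizontal axis, points, with bars for the 95% interval) of 13 other ADAMTS genes and 7 ADAMTS-like genes (vertical axis) between shRunx2 and Scr cells at day 9 (left) and between day 9 and day 0 of Scr cells (right). Red points rose, blue points fell and grey points did not pass. On the left only Adamtsl1, Adamtsl4 and Thsd4 are colored, all right of 0.

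Among 8 genes of proteoglycan and matrix substrates, 1 rose in shRunx2 cells, where 2.73% of all genes tested rose, and 7 did not pass. Dcn, which encodes the small proteoglycan decorin, rose 1.17-fold (log2 change 0.22 ± 0.041, SE; limma, adjusted p = 0.00722), from 13.81 on each of the 3 Scr arrays to 14.06, 13.95 and 14.08. Those 3 Scr values had an SD of 0, since the deposited values were equal. Versican (Vcan), a substrate of Adamts1, Adamts4, Adamts5 and Adamts9, read 10.81, 10.78 and 10.66 in Scr and 10.49, 10.65 and 10.52 in shRunx2 cells. Its log2 change of -0.20 ± 0.054 did not pass at an adjusted p of 0.0522. Of the 8 substrates 2 passed in 7 of 18 alternative settings, among them those without Scr day 9 replicate 3, without shRunx2 replicate 2 and with the replicate number as a block. In differentiation Vcan fell 2.15-fold, from 11.86 ± 0.058 to 10.75 ± 0.079 (SD, n = 3; limma, adjusted p = 3.04e-08). In the same comparison Dcn rose 2.89-fold and fibromodulin (Fmod) 3.52-fold, where 14.5% of all genes tested rose and 17.1% fell. The other 5, which include Acan and the cartilage oligomeric matrix protein gene Comp, did not pass in either comparison.

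Fibrillar procollagens are the substrates of Adamts2 and Adamts14. Of 6 measured genes, 2 fell in shRunx2 cells, Col3a1 (1.22-fold, adjusted p = 0.000864) and Col5a2 (1.23-fold, adjusted p = 0.00243). The share that fell was 4.66% over all genes tested. Col1a1 and Col1a2 had log2 changes of -0.027 and -0.012 and did not pass. Their group means lay between 13.44 and 13.59, and whether these probe sets were near saturation was not tested. In differentiation Col3a1 rose 1.83-fold and Col5a1 fell 1.20-fold, and the other 4 did not pass (limma throughout). There 14.5% of all genes tested rose and 17.1% fell.

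The genes that act on ADAMTS proteins did not pass in shRunx2 cells, where 2.73% of all genes tested rose and 4.66% fell. This held for all 4 inhibitors of the TIMP family, all 4 proprotein convertases and all 6 genes of cofactors, clearance and glycosylation, with log2 changes from -0.11 to 0.084 (limma). In the last group 1 gene passed with array weights and with a trended, robust variance prior. At an unadjusted p under 0.05, 3 of these genes passed in limma, Timp1 (log2 change -0.11), Furin (-0.10) and Pofut2 (-0.11). In differentiation 1 inhibitor rose and 2 fell, where 14.5% of all genes tested rose and 17.1% fell. Timp1 fell 1.54-fold, from 13.33 ± 0.035 to 12.70 ± 0.024, and Timp3 fell 1.27-fold, from 13.57 ± 0.023 to 13.23 ± 0.045 (SD, n = 3; limma, adjusted p = 3.44e-07 and 1.65e-05). Timp2 rose 1.10-fold (adjusted p = 0.0111).

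Of the convertases only Pcsk7 passed in differentiation, with a 1.16-fold lower level (adjusted p = 0.0115), and its call was lost without Scr day 9 replicate 3. Furin, Pcsk5 and Pcsk6 had log2 changes of -0.044, -0.068 and 0.080 and did not pass. B3glct, a glycosyltransferase that modifies thrombospondin repeats, fell 1.29-fold, the endocytic receptor Lrp1, which clears Adamts4 and Adamts5, fell 1.26-fold, and Fbln2 and Sdc4 fell 1.19-fold and 1.15-fold (limma, adjusted p from 2.28e-05 to 0.00187). Of all genes tested, 17.1% fell in differentiation.

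**Figure D5:**
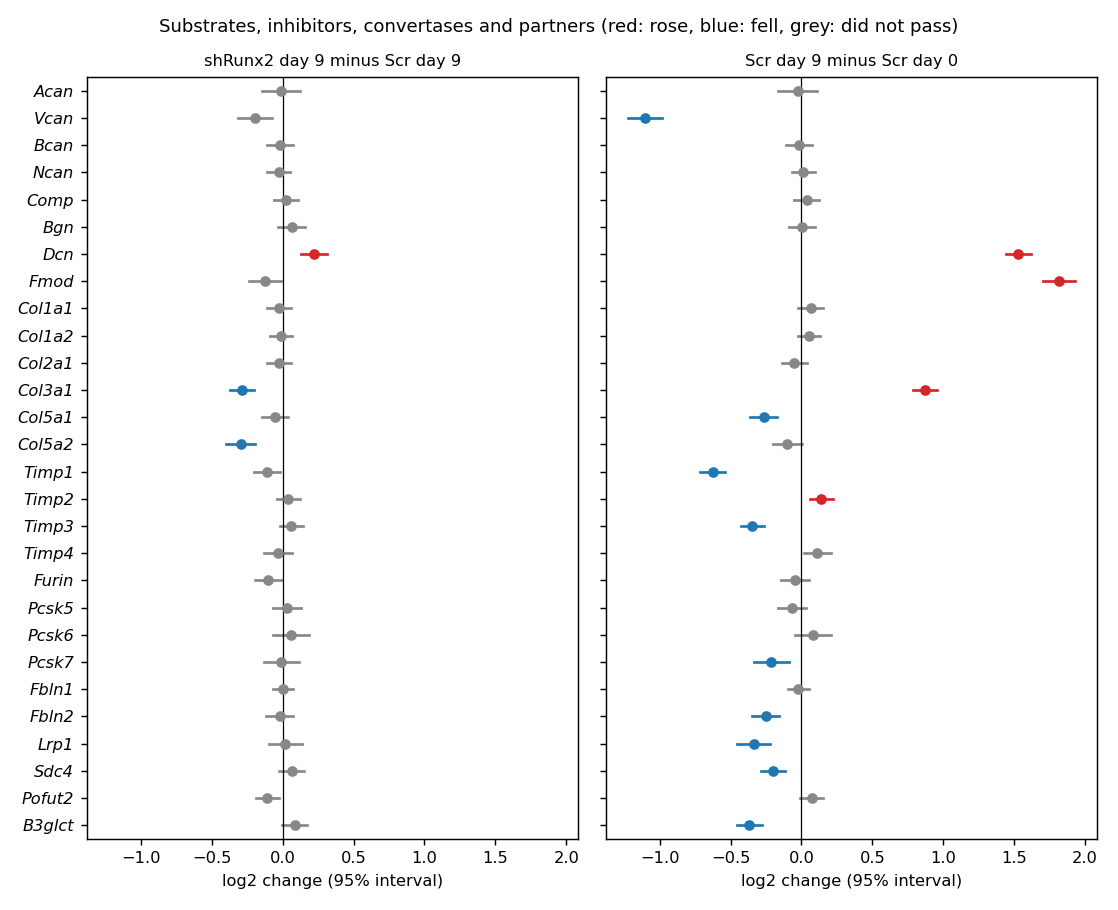
Log2 change (horizontal axis, points, with bars for the 95% interval) of genes of ADAMTS substrates (proteoglycans and procollagens), inhibitors, convertases and partners (vertical axis) between shRunx2 and Scr cells at day 9 (left) and between day 9 and day 0 of Scr cells (right). Red points rose, blue points fell and grey points did not pass. On the left Dcn (0.22), Col3a1 (-0.28) and Col5a2 (-0.29) are colored, and on the right Vcan lies furthest left (-1.10) and Fmod furthest right (1.82).

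Markers of other cells were read beside these changes. The mean log2 level of 11 chondrocyte markers lay between 8.84 and 8.93 on the Scr day 0 arrays, 8.82 and 8.95 at Scr day 9 and 8.89 and 8.91 in shRunx2 cells, and 1 of the 11, Sox9, rose in shRunx2 cells (0.20 ± 0.034). For 8 macrophage markers the mean lay between 7.70 and 7.72, 7.80 and 7.85, and 7.84 and 7.88 in the same order, and in shRunx2 cells Lyz2 rose (0.42 ± 0.087) and Fcer1g fell (-0.27 ± 0.048). From day 0 to day 9 in Scr cells Lyz2 rose by 0.80 ± 0.087 and Fcer1g by 0.50 ± 0.048 on the log2 scale, and Cd14 fell (-0.32 ± 0.048). None of the 6 endothelial or 5 measured adipocyte markers passed between shRunx2 and Scr cells, where 1 of 5 smooth muscle markers, Tagln, fell (-0.17 ± 0.044). In differentiation Tagln rose (0.26 ± 0.044), and no chondrocyte, endothelial or adipocyte marker passed (limma). The osteoblast markers had a mean over 6 genes of 8.92 to 9.01 at Scr day 0, 10.42 to 10.51 at Scr day 9 and 9.77 to 9.80 in shRunx2 cells, and 4 of the 6 fell in shRunx2 cells. The part of these shifts in the ADAMTS changes was not tested.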

How the data were processed

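Expression was measured on 9 Affymetrix Mouse Gene 1.0 ST arrays, 3 per group. The deposited values are log2 expression per probe set after RMA (background correction, quantile normalization and summarization by the authors). The submitters' processing notes name RMA and limma, the genome build is not given in the sources used here, and the methods mention a filter they do not describe. RMA compresses the changes of dim and saturated probe sets, so folds are on its scale.

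Of 34760 probe sets, 21640 carried 1 gene symbol in the platform's probe table, 1321 several and 11799 none. Where a symbol had several probe sets (954 genes), that of highest average level was kept, leaving 19937 genes. A model of 3 group means was fitted by lmFit and eBayes (limma 3.58.1, R 4.3.3), with Benjamini-Hochberg adjustment in each comparison, and tested on simulated data. The labels and methods call the replicates biological, and p-values measure the spread between these arrays. The ADAMTS genes and all lists were chosen with earlier results of these data known. Named are all measured members, list genes that passed between shRunx2 and Scr cells at day 9, up to 3 genes a list with the smallest adjusted p in differentiation, and 3 genes of nearest profile per member. Adamts7, Acan, Comp, Col1a1, Col1a2, Furin, Pofut2, Sdc4 and the individual marker genes were added after their values were seen. Alternatives were other adjustment sets, probe sets, normalizations, variance models, array weights, a replicate block and leaving out each array.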

Additional observations from a re-analysis of the deposited data

How the results depend on the processing

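In 18 alternative settings each, Adamts4 and Adamts12 passed in the same direction in all 3 comparisons, and the calls of all 5 ADAMTS genes held in the comparisons with Scr day 0, where 4 of the 5 passed each time. Between shRunx2 and Scr cells at day 9, Adamts4 had an adjusted p from 6.09e-05 to 0.0075 and Adamts12 from 2.59e-06 to 0.000617 (limma). The number of ADAMTS genes called there was 2, against 4 with array weights and 2 to 3 when 1 array was left out. Adamts1 passed with array weights (adjusted p = 0.00958), with repeated quantile normalization (0.00799), among genes above the median expression (0.0333), with a trended, robust variance prior (0.0461) and without Scr day 0 replicate 3 (0.0457). Adamts5, with no call, changed sign in this comparison, with log2 changes of -0.0658 without Scr day 9 replicate 3 and -0.0516 without shRunx2 day 9 replicate 3, in a range of -0.0658 to 0.0604. The number of all genes called was 1474, against 2590 with array weights and 858 (without Scr day 9 replicate 2) to 1502 when 1 array was left out, with 919 without shRunx2 day 9 replicate 1. The cause was not tested. Deviations of arrays with the same replicate number had correlations of -0.114 to 0.294, with 3 of 9 pairs over 0.1, so the numbers were not taken as a pairing, although 7 of 9 arrays were closest on average to their own number, a hint from the data and not the design. With the replicate number as a block, 2, 4 and 4 ADAMTS genes and 1450, 6466 and 6997 of all genes were called in the knockdown, differentiation and shRunx2 day 9 against Scr day 0 comparisons, and no ADAMTS call changed (Adamts4 0.00115 and Adamts12 3.35e-05 in the first). In the first comparison the block moved the count of substrates called from 1 to 2. Signal over background is unknown for these values, since the deposited values hold no detection measure, and 3 arrays per group limit which small changes can be called.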
